A study of Mus musculus with 23 samples.

Results

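The 10 glucocorticoid-responsive genes described here were followed across 23 sciatic nerve (SN) libraries: Fkbp5, Zbtb16, Tsc22d3, Sgk1, Plin4, Klf9, Pdk4, Hif3a, Mt1 and Mt2. They were taken as a fixed list of 10 symbols out of 43068 genes listed in the crush libraries and 22880 genes listed in the iKO libraries, and all 10 were present in both. The list was drawn up with the difference between uncrushed and contralateral nerves in view, so that difference is given here as a description and was not tested. The crush experiment used wild-type C57bl6 mice and comprised crushed nerves at 3 dpc (days post crush, n = 4), contralateral nerves from the unharmed side of the crushed animals (n = 4) and uncrushed nerves, labelled as a control for surgery (n = 3). By the methods, the crush was done on young adult males under isoflurane with buprenorphine as analgesic, and the injured piece was taken distal to the crush. Crushed and contralateral nerves thus share mice by the methods, but no source used here says whether equal replicate numbers mean the same mouse, and the groups were compared as unpaired. Whether the mice with uncrushed nerves had an operation, anaesthesia or buprenorphine is not given in the sources used here, and surgery, analgesic and nerve injury cannot be told apart in this comparison. The iKO experiment used nerves at 3 mpT (months post tamoxifen) on a C57bl6 background: Dicer iKO (P0-CreERT2 -/+ with Dicer1 flox/flox), Dgcr8 iKO (P0-CreERT2 -/+ with Dgcr8 flox/flox) and, for each, Cre-negative controls (P0-CreERT2 -/- with the same floxed alleles), with n = 3 in each of these 4 groups. All 12 of these mice carried floxed alleles and received tamoxifen. The Cre transgene is active in Schwann cells (SCs), so other cells of the nerve keep Dicer or Dgcr8. By the results and a figure legend of the paper, the mutants were preselected on nerve morphology. Nothing in the labels says which libraries came from separate experiments or litters, so p-values measure the spread between these samples.

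Glucocorticoids are adrenal steroid hormones that enter cells and bind the glucocorticoid receptor (Nr3c1), which is held in an HSP90 chaperone complex until ligand arrives and then binds palindromic glucocorticoid response elements in DNA. Blood levels rise with stress, fasting and the time of day, and the genes listed here are induced in many tissues, by direct binding or through other inputs that several of them share. Fkbp5, a co-chaperone that lowers the receptor's affinity for hormone, and Tsc22d3, which encodes the anti-inflammatory protein GILZ, are commonly used as readouts of receptor activity. Mt1 and Mt2 (metallothioneins) also respond to zinc through MTF1, Pdk4 to fasting, and Hif3a to hypoxia. In nerve, SCs, fibroblasts, endothelial cells and macrophages express the receptor, and glucocorticoids are known to favour myelination in culture. No hormone level was measured in these nerves.

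All 10 are protein-coding genes, placed here by the GRCm38 annotation. The regulators of the receptor and of transcription are Fkbp5 (ENSMUSG00000024222, chr17:28399094-28517527, minus strand), Zbtb16 (ENSMUSG00000066687, chr9:48654297-48836222, minus strand), Tsc22d3 (ENSMUSG00000031431, chrX:140539528-140600659, minus strand) and Klf9 (ENSMUSG00000033863, chr19:23141226-23168134, plus strand). The kinases are Sgk1 (ENSMUSG00000019970, chr10:21882184-21999903, plus strand) and Pdk4 (ENSMUSG00000019577, chr6:5483351-5496309, minus strand). The lipid droplet gene is Plin4 (ENSMUSG00000002831, chr17:56100591-56109803, minus strand) and the hypoxia factor is Hif3a (ENSMUSG00000004328, chr7:17031507-17062427, minus strand). The metallothionein genes are neighbours, Mt2 (ENSMUSG00000031762, chr8:94172664-94173568, plus strand) and Mt1 (ENSMUSG00000031765, chr8:94179082-94180327, plus strand).

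Sequence around the transcription starts was examined because binding motifs were not used to choose the list. RefSeq promoter windows (GRCm38.p6, 250 bases before to 50 bases after a start, 300 in all) were found for 9 of the 10 genes, as 16 windows, with no entry used for Zbtb16. The full palindrome, AGAACA and TGTTCT with any 3 bases between them, searched on both strands, was present in 3 of 32851 windows of all genes (0.00913%), and a window of Sgk1 was one of the 3. It begins 189 bases before a start on the plus strand of chromosome 10. The shorter form AGAACA, which the palindrome contains on each strand, was in 19.0% of all windows, among them windows of Sgk1 and Tsc22d3. The metal response core, TGCGCNC or TGCACNC on either strand, was in 25.7% of all windows. The window of Mt2 held 4 copies, and at least 4 were found in 0.517% of all windows. The window of Mt1 held 3 copies, and at least 3 were found in 1.97%. Fkbp5, Plin4, Klf9 and Pdk4 had no match in their windows, which says only that these letters are not within them. The first 280 bases of the 3 windows follow, plus strand, 5′ to 3′, because they carry the densest matches. Capitals mark the palindrome in Sgk1 (chr10:21993640-21993919) and the metal response cores in Mt1 (chr8:94178839-94179118) and Mt2 (chr8:94172368-94172647).
Sgk1: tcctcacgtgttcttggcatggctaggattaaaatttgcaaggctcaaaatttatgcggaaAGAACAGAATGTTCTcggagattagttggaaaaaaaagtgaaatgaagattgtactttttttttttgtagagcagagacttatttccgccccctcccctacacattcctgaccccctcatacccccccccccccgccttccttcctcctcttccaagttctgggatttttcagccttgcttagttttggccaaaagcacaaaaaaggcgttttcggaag
Mt1: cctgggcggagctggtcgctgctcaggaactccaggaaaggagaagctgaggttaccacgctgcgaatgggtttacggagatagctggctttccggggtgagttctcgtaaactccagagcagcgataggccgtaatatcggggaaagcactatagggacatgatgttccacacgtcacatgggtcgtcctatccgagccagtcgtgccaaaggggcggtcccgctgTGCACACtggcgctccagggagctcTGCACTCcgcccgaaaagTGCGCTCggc
Mt2: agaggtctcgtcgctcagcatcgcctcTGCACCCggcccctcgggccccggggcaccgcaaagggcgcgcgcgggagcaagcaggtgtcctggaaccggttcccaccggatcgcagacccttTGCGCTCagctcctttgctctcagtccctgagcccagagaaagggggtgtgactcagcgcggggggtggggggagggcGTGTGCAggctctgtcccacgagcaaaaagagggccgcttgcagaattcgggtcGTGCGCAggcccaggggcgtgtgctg

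Total counts were 6617600 to 12805921 per library in the crush experiment and 5594838 to 10143207 in the iKO experiment, so 3 counts correspond to 0.234 to 0.453 CPM (counts scaled to library size and normalised by TMM) and 0.296 to 0.536 CPM, counting error only. Levels are not compared between the experiments, whose labels name different library kits. The targeted genes did not pass the test at gene level. Dicer1 was at 81.3, 82.1 and 82.0 CPM in Dicer iKO against 88.1, 87.4 and 90.5 in controls, and Dgcr8 at 39.4, 54.0 and 41.8 CPM in Dgcr8 iKO against 38.4, 35.4 and 41.8. Their adjusted p values were 0.357 and 0.233 (edgeR's quasi-likelihood test), and since gene counts include exons outside the deleted parts, this does not check the labels. Myelin and SC genes mark the tissue as nerve: the 10 SC markers summed to 41279 to 44594 CPM in uncrushed and 43389 to 56883 CPM in contralateral nerves, against 2071 to 3061 CPM in crushed nerves.

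All 10 genes were highest on average in uncrushed nerves, intermediate in contralateral nerves and lowest in crushed nerves. Fewer cells of a type and less RNA per cell cannot be told apart in these whole-nerve libraries. The mean in uncrushed nerves was 1.15 times that in contralateral nerves for Pdk4 and 2.65 times for Plin4, with the other 8 genes between them. All 10 had a fitted log2 fold change above 0, as had 52.6% of genes. Plin4 alone was at least 2-fold higher, as were 3.26% of genes, while 0.141% of genes were at least 2-fold lower. In 7 of the 10 genes every uncrushed nerve was above every contralateral nerve, where 8.81% of the 17722 genes tested showed this. The list was chosen on this contrast, so nothing is read from the share. The median log2 fold change (uncrushed minus contralateral) of the 10 genes was 0.76, beside 0.02 for all genes. Across all genes edgeR's quasi-likelihood test called 0 at an adjusted p of at most 0.05, while 3165 had an unadjusted p under 0.05, and DESeq2 called 232 higher and 18 lower.

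**Figure D1:**
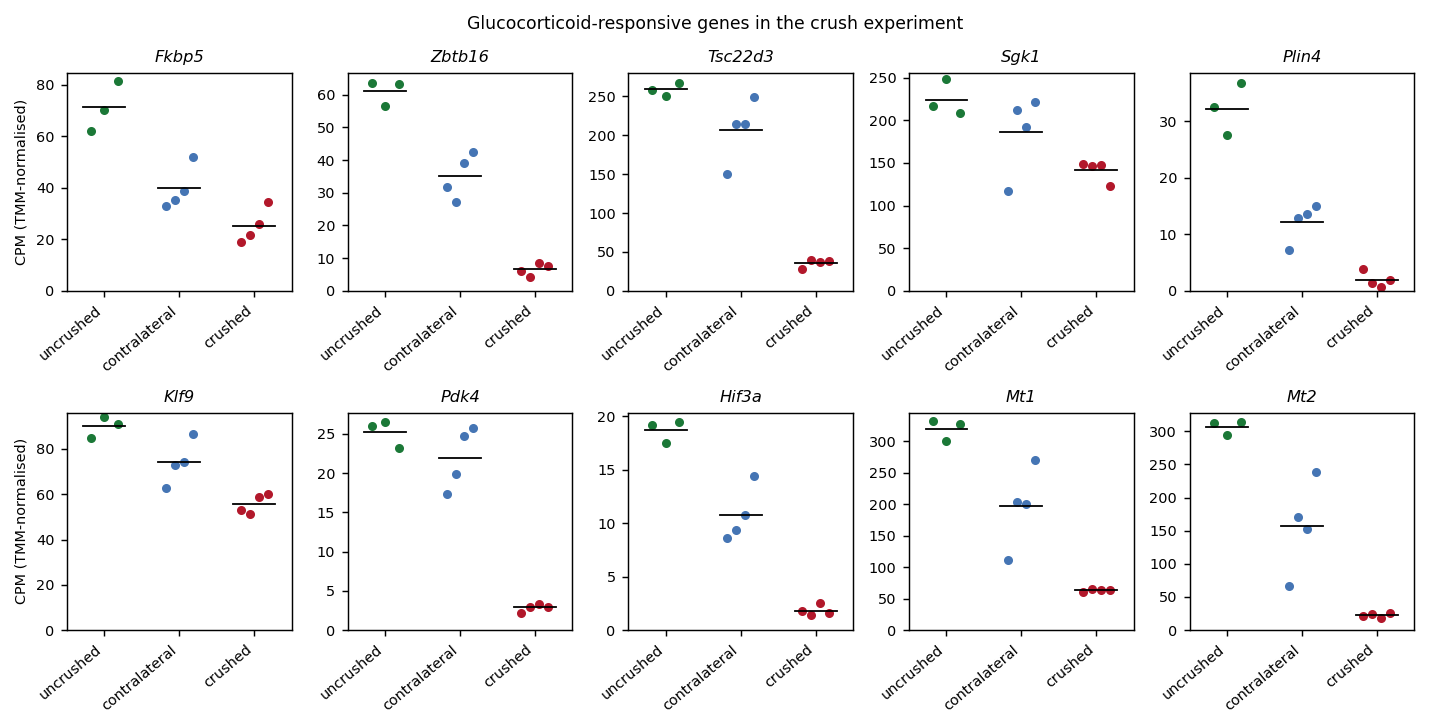
Level of the 10 genes in the crush experiment (y axis, CPM normalised by TMM, linear from 0; x axis, group). Each point is 1 nerve and each line a group mean. Every gene has its highest mean in uncrushed and its lowest in crushed nerves, for example Mt2 at 307, 157 and 22.4 CPM.

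Among regulators of the receptor and transcription, Fkbp5 was at 61.9, 70.2 and 81.3 CPM in the uncrushed nerves 1 to 3 and at 33.0, 35.3, 38.7 and 51.8 CPM in the contralateral nerves 1 to 4. The groups did not overlap, and the mean was 71.1 ± 9.71 CPM (SD, n = 3) against 39.7 ± 8.38 (SD, n = 4), a fitted log2 fold change of 0.84 (SE, standard error, 0.14). Zbtb16, a zinc finger repressor also known as PLZF, was at 63.6, 56.5 and 63.2 CPM against 31.7, 27.0, 39.2 and 42.6 CPM. It too separated the groups, with a log2 fold change of 0.81 (SE 0.14). Tsc22d3 reached 259, 251 and 268 CPM against 151, 215, 215 and 249 CPM, so that the highest contralateral nerve lay just under the lowest uncrushed nerve, and its log2 fold change was 0.33 (SE 0.14). Klf9, a Krüppel-like factor induced by glucocorticoid and thyroid hormone, was at 85.0, 93.9 and 91.0 CPM against 62.7, 72.9, 74.2 and 86.7 CPM. Its groups overlapped in a single contralateral nerve, number 4, and its log2 fold change was 0.28 (SE 0.10).

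Sgk1, a kinase that controls ion channels and survival signalling, was at 216, 249 and 208 CPM in uncrushed and 118, 213, 192 and 221 CPM in contralateral nerves. The ranges overlapped and the log2 fold change was 0.28 (SE 0.17). Pdk4, the kinase that shuts off pyruvate dehydrogenase when fat is burned, was at 26.1, 26.5 and 23.2 CPM against 17.4, 19.9, 24.7 and 25.7 CPM, also overlapping, with the lowest log2 fold change of the 10, 0.22 (SE 0.14). Plin4, a lipid droplet coat protein, had the highest: 32.5, 27.5 and 36.6 CPM against 7.17, 12.8, 13.5 and 15.1 CPM, a log2 fold change of 1.41 (SE 0.19), exceeded by 84 of the 17722 genes tested. Plin4 is abundant in fat, so fat markers are given beside it. The defining adipocyte genes Adipoq, Plin1 and Cidec were each at or below 0.682 CPM in every uncrushed and contralateral nerve, near the floor of 3 counts, and the 12 adipocyte markers summed to 55.9 to 80.8 CPM in uncrushed and 49.2 to 58.7 CPM in contralateral nerves. Of these markers 4 passed the filter in uncrushed against contralateral nerves, with 3 fitted values above 0 and 1 below (median 0.19). They ran from Lipe at -0.11 (SE 0.24) to Pck1 at 0.69 (SE 0.28). The part of fat in the Plin4 difference was not tested.

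Hif3a, a hypoxia-inducible factor subunit, was at 19.1, 17.5 and 19.4 CPM in uncrushed nerves and 8.58, 9.35, 10.7 and 14.4 CPM in contralateral nerves, a log2 fold change of 0.81 (SE 0.16). The metallothioneins were among the most abundant of the 10. Mt1 was at 332, 300.05 and 327 CPM against 112, 204, 200.2 and 271 CPM, and Mt2 at 313, 294 and 313 CPM against 66.4, 171, 152 and 239 CPM. Neither gene overlapped between the groups, and their log2 fold changes were 0.71 (SE 0.21) and 0.97 (SE 0.29). Mt1 and Mt2 are close paralogs whose shared reads RSEM divides by estimate, so the split between them is less certain than their sum. In TPM, which is scaled to transcript length, Mt1 (68.8 ± 20.0 in uncrushed, SD, n = 3) and Mt2 (63.8 ± 19.8) were well above Sgk1 (13.1 ± 4.77) and Tsc22d3 (12.7 ± 3.996), while Hif3a (0.380 ± 0.165) and Plin4 (0.513 ± 0.101) were lowest.

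The scale matters to these comparisons. In the deposited TPM the median of 16875 genes differed by -0.60 on the log2 scale (uncrushed minus contralateral), and only 6 of the 10 genes had a higher mean TPM in uncrushed nerves. Relative to that median all 10 were higher, by 0.16 to 1.35, with a median of 0.66. In crushed against contralateral nerves the TPM median of all genes was 0.20 and 1 of the 10 genes, Sgk1, had a higher mean TPM in crushed nerves, but all 10 lay below that median. In CPM normalised by TMM, used throughout, the median of all genes was 0.02 for the first and -0.06 for the second comparison.

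The contralateral nerves themselves differed together. Contralateral nerve 1 had the lowest level of 9 of the 10 genes, where it was lowest for 26.6% of 16951 genes, and contralateral nerve 4 had the highest level of all 10, where it was highest for 25.9% of genes. Mt2 showed the widest gap, with nerve 4 at 3.60 times nerve 1. The median coefficient of variation of the 10 genes was 22.5% among contralateral nerves (n = 4), 15.5% among crushed nerves (n = 4) and 6.01% among uncrushed nerves (n = 3). Since the list was chosen after these levels were known, these shares and coefficients are descriptions. Uncrushed libraries were not the most alike in general. Between pairs of libraries the chi-square per degree of freedom was 14.9 to 26.3 in uncrushed, 6.63 to 14.3 in crushed and 3.86 to 12.5 in contralateral nerves. Leaving out contralateral nerve 1 or any other single library kept all 10 fold changes above 0, with a median of 0.62 to 0.91.

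**Figure D2:**
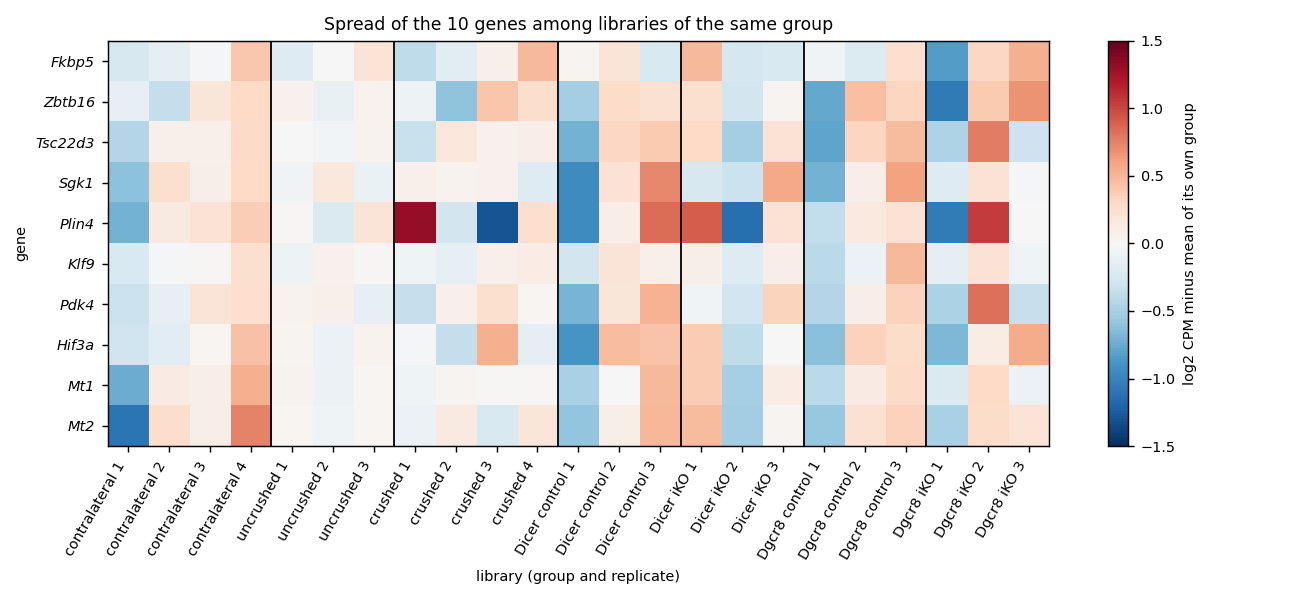
Spread of the 10 genes (y axis) among the 23 libraries (x axis), coloured by the log2 CPM of a library minus the mean log2 CPM of its own group. Contralateral 1, Dicer control 1, Dicer iKO 2, Dgcr8 control 1 and Dgcr8 iKO 1 are the libraries in which 9 or 10 of the 10 genes were lowest of their group.

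Crushed and contralateral nerves were compared to separate the local effect of the crush from changes in both nerves. These contralateral libraries also took part in the contrast that chose the genes. All 10 genes fell in crushed nerves at an adjusted p of at most 0.05 by edgeR's quasi-likelihood test, where 32.9% of 16667 genes fell, and 7 of them fell at least 2-fold, where 13.6% did. The median log2 fold change was -2.44, beside -0.06 for all genes. In 8 genes the groups did not overlap, as for 29.1% of genes tested.

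Pdk4 fell furthest, to 2.25, 3.01, 3.39 and 2.92 CPM in the crushed nerves 1 to 4, from the contralateral values given above, a log2 fold change of -2.90 (SE 0.16, adjusted p = 9.55e-10 by edgeR). Mt2 fell to 20.9, 24.4, 19.1 and 25.3 CPM (log2 fold change -2.79, SE 0.28), and Mt1 to 60.8, 65.3, 64.1 and 64.2 CPM (log2 fold change -1.61, SE 0.19). The 4 crushed nerves were nearly level for Mt1, whereas the contralateral nerves spanned 112 to 271 CPM. Plin4 fell to 3.93, 1.30, 0.642 and 1.89 CPM, a log2 fold change of -2.59 (SE 0.36), and crushed nerve 1, the highest, also had the highest summed adipocyte markers of its group, 84.3 CPM against 47.1 to 50.2 CPM, whose part was not tested. Without that nerve the Plin4 log2 fold change was -3.26.

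Hif3a fell to 1.77, 1.38, 2.57 and 1.60 CPM (log2 fold change -2.53, SE 0.21). Tsc22d3 fell to 28.5, 40.2, 37.7 and 38.6 CPM (log2 fold change -2.50, SE 0.14), and Zbtb16 to 6.10, 4.24, 8.62 and 7.73 CPM (log2 fold change -2.38, SE 0.19). In each of these genes the lowest contralateral nerve was several fold above the highest crushed nerve. The remaining 3 genes fell less than 2-fold. Fkbp5 was at 18.9, 21.8, 26.0 and 34.4 CPM, with crushed nerve 4 inside the contralateral range, and its log2 fold change was -0.63 (SE 0.18, adjusted p = 0.00576 by edgeR). Klf9 was at 53.2, 51.2, 58.7 and 59.9 CPM (log2 fold change -0.39, SE 0.10, adjusted p = 0.00313 by edgeR). Sgk1 was at 149, 146, 147 and 123 CPM, a log2 fold change of -0.38 (SE 0.15, adjusted p = 0.0392 by edgeR), and contralateral nerve 1 lay below all 4 crushed nerves. The call for Sgk1 was lost in 6 of 15 alternative analyses, among them those without contralateral nerve 2, 3 or 4 (adjusted p = 0.135, 0.0823 and 0.126) or without crushed nerve 4 (adjusted p = 0.108).

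Against uncrushed nerves, which also chose the genes, all 10 were lower in crushed nerves without overlap, where 35.7% of 17433 genes were, and the median log2 fold change was -2.88. Plin4 differed most (-3.91) and Sgk1 least (-0.57). Fkbp5 was the only one of the 10 genes whose uncrushed to contralateral ratio of 1.79 exceeded its contralateral to crushed ratio of 1.57. For Pdk4 the same ratios were 1.15 and 7.58, and for Tsc22d3 1.25 and 5.72. These ratios share the contralateral libraries and were not tested against each other.

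**Figure D3:**
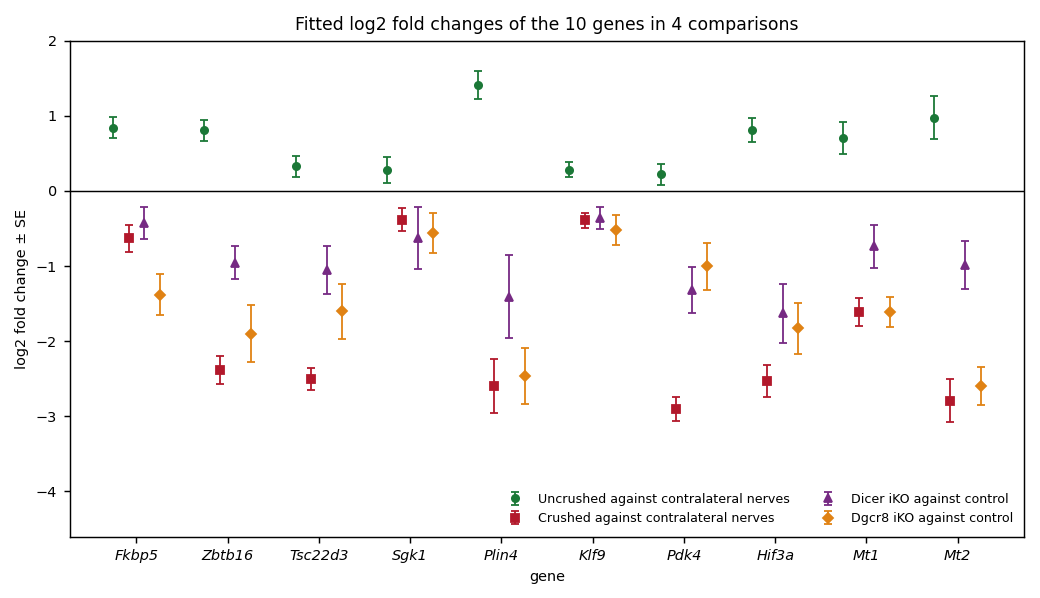
Fitted log2 fold change (y axis, points with bars of 1 standard error) of the 10 genes (x axis) in 4 comparisons, marked by colour and shape. The 10 values for uncrushed against contralateral nerves lie above 0 and all values of the other 3 comparisons lie below 0. The uncrushed and crushed comparisons share the contralateral libraries.

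RSEM's division of counts among transcripts gave Sgk1 a pattern that its total hid. Of 13 Sgk1 transcripts listed in the crush libraries, Sgk1-201 and Sgk1-202 received most counts, and Sgk1-202 starts at the RefSeq start whose window holds the palindrome shown above. Sgk1-202 received 41.7 ± 3.79% of Sgk1 counts in uncrushed nerves (SD, n = 3), 43.4 ± 2.29% in contralateral nerves (SD, n = 4) and 23.5 ± 4.70% in crushed nerves (SD, n = 4). The crushed nerves (18.7 to 29.2%) did not overlap with the contralateral nerves (40.1 to 45.1%) or the uncrushed nerves (38.5 to 45.9%). In level, Sgk1-202 was at 80.6 ± 20.7 CPM in contralateral and 33.4 ± 8.39 CPM in crushed nerves, while Sgk1-201 was at 91.0 ± 26.6 and 91.8 ± 11.3 CPM. The shares of uncrushed and contralateral nerves overlapped. In the iKO experiment Sgk1-202 received 21.5 ± 2.37% in Dgcr8 controls and 11.4 ± 3.13% in Dgcr8 iKO nerves (SD, n = 3 each), again without overlap (19.1 to 23.9% and 7.79 to 13.3%). In Dicer controls the share was 21.1 ± 4.67% and in Dicer iKO nerves 17.5 ± 0.741%, with overlapping ranges. These transcripts share most of their exons, so the shares are estimates, and they were looked at as a description without a test.

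**Figure D4:**
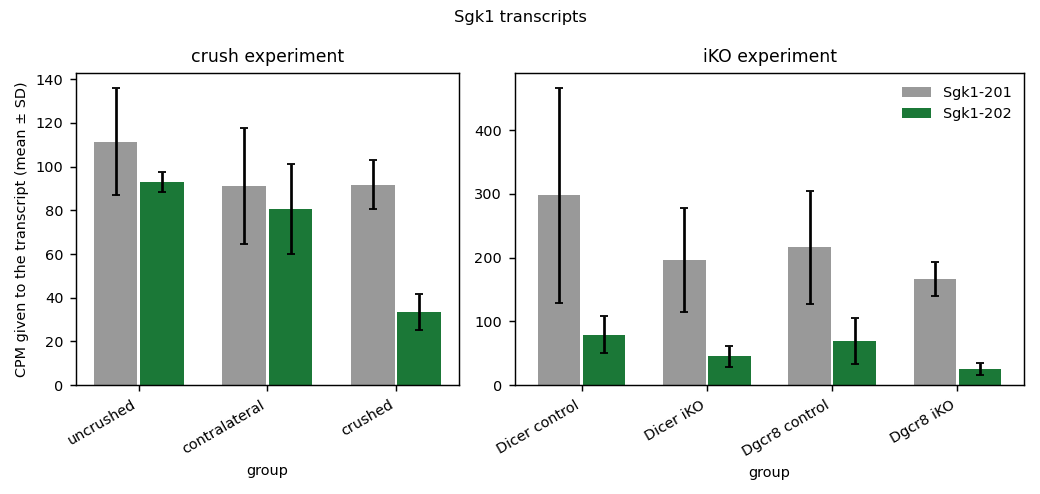
CPM assigned to Sgk1-201 (grey) and Sgk1-202 (green) by group (x axis), as mean with bars of 1 SD, crush experiment left (n = 3, 4 and 4) and iKO experiment right (n = 3 each), each axis from 0 with its own scale. Sgk1-202 is at 33.4 CPM in crushed nerves against 80.6 CPM in contralateral nerves, where Sgk1-201 is at 91.8 and 91.0 CPM.

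The mutants, whose libraries are outside the contrast behind the list although their results were also known when it was drawn up, were compared with their own controls to ask whether loss of miRNA biogenesis in SCs changes these genes without a crush. All 10 genes had a lower fitted level in both mutants, as had 50.6% of genes in Dicer iKO and 50.8% in Dgcr8 iKO. In Dgcr8 iKO nerves 8 of the 10 fell at an adjusted p of at most 0.05 by edgeR's quasi-likelihood test, each at least 2-fold, where 20.6% of 13252 genes fell and 6.99% fell at least 2-fold. In Dicer iKO nerves 3 of the 10 fell, where 8.88% of 13045 genes fell, and 2 of these fell at least 2-fold, where 1.64% did. The median log2 fold change of the 10 genes was -1.61 in Dgcr8 iKO and -0.97 in Dicer iKO. The groups did not overlap in 7 genes for Dgcr8 (27% of all genes tested) and in 4 genes for Dicer (20%).

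Mt2 fell most in Dgcr8 iKO nerves, from 151, 262 and 287 CPM in controls 1 to 3 to 26.9, 45.3 and 43.4 CPM in mutants 1 to 3, a log2 fold change of -2.60 (SE 0.26, adjusted p = 2.23e-05 by edgeR). Only 54 of the 13252 genes tested had a lower fold change. Mt1 fell from 201, 292 and 325 CPM to 76.0, 109 and 83.05 CPM (log2 fold change -1.61, SE 0.20, adjusted p = 8.46e-05 by edgeR). In Dicer iKO nerves Mt2 was at 139, 69.7 and 103 CPM against 131, 210.0 and 279 CPM, and Mt1 at 231, 126 and 192 CPM against 209.6, 295 and 412 CPM. Both overlapped with their controls there and missed the threshold (adjusted p = 0.0635 and 0.108 by edgeR).

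Plin4 fell from 68.8, 98.0 and 103 CPM to 6.61, 28.2 and 13.6 CPM in Dgcr8 iKO nerves (log2 fold change -2.46, SE 0.37, adjusted p = 0.000345 by edgeR). In Dicer iKO nerves it was at 81.2, 19.7 and 50.1 CPM against 61.9, 128 and 213 CPM (adjusted p = 0.110). The 12 adipocyte markers summed to 27.2 to 40.02 CPM in Dgcr8 controls and 69.0 to 195 CPM in Dgcr8 iKO nerves, and 38.8 to 211 CPM in Dicer controls and 56.7 to 72.5 CPM in Dicer iKO nerves. Adipoq reached 10.05 CPM in Dicer control 2 and 7.06 CPM in Dgcr8 iKO 2, which were at 128 and 28.2 CPM for Plin4, the latter the highest of its group. Plin1 and Cidec were at 0 in every Dicer iKO nerve. The part of fat in these levels was not tested.

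Fkbp5 fell in Dgcr8 iKO nerves from 84.5, 76.2 and 104 CPM to 17.6, 38.8 and 45.4 CPM (log2 fold change -1.38, SE 0.27, adjusted p = 0.00178 by edgeR). In Dicer iKO nerves it was at 141, 83.7 and 85.7 CPM against 142, 158 and 118 CPM, with mutant 1 inside the control range (log2 fold change -0.43, SE 0.22, adjusted p = 0.196 by edgeR). Zbtb16 fell in both mutants without overlap. It went from 29.9, 69.4 and 63.4 CPM to 6.13, 16.9 and 20.4 CPM in Dgcr8 iKO (log2 fold change -1.90, SE 0.38, adjusted p = 0.00197 by edgeR) and from 61.2, 105 and 102 CPM to 53.6, 37.6 and 46.7 CPM in Dicer iKO (log2 fold change -0.95, SE 0.22, adjusted p = 0.0234 by edgeR). Hif3a also fell in both, from 7.08, 13.9 and 13.2 CPM to 1.89, 3.24 and 4.43 CPM in Dgcr8 iKO (log2 fold change -1.83, SE 0.34) and from 5.75, 14.5 and 14.2 CPM to 4.66, 2.76 and 3.60 CPM in Dicer iKO (log2 fold change -1.63, SE 0.39, adjusted p = 0.0255 by edgeR). Of the 13045 genes tested in Dicer, 57 had a lower fold change than Hif3a.

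Pdk4 was the third gene to fall in both mutants. In Dgcr8 iKO it was at 16.3, 40.1 and 17.8 CPM against 35.9, 51.8 and 62.1 CPM (log2 fold change -1.004, SE 0.31, adjusted p = 0.0213 by edgeR), and in Dicer iKO at 24.9, 21.0 and 32.5 CPM against 38.1, 69.7 and 88.2 CPM (log2 fold change -1.32, SE 0.30, adjusted p = 0.0222 by edgeR). The Dgcr8 call rested on few libraries and was lost without control 2 or 3 or without mutant 1 or 3 (adjusted p = 0.0643, 0.0878, 0.0776 and 0.0554). Tsc22d3 fell in Dgcr8 iKO from 296, 640.1 and 713 CPM to 122, 285 and 135 CPM (log2 fold change -1.60, SE 0.36, adjusted p = 0.00406 by edgeR). In Dicer iKO its nerves did not overlap with controls, at 497, 283 and 468 CPM against 500.2, 1012 and 1074 CPM, but the adjusted p was 0.0540. Klf9 and Sgk1 missed the threshold in both mutants. Klf9 was at 77.8, 100.1 and 82.3 CPM against 91.3, 113 and 169 CPM in Dgcr8 (adjusted p = 0.0574) and at 146, 121 and 148 CPM against 147, 202 and 187 CPM in Dicer (adjusted p = 0.115). Sgk1 was at 183, 245 and 207 CPM against 179, 314 and 442 CPM in Dgcr8 (adjusted p = 0.107) and at 209.9, 198 and 369 CPM against 188, 420.1 and 592 CPM in Dicer (adjusted p = 0.311).

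The Dicer calls for Zbtb16, Pdk4 and Hif3a depended on single libraries, with 0 of 10 genes called without Dicer control 2, Dicer iKO 2 or Dicer iKO 3, and 9 of 10 without Dicer control 1. In each control group the first nerve was the lowest for 9 of the 10 genes (35.7% of 13388 genes for Dicer control 1 and 29.7% for Dgcr8 control 1), and in each mutant group a single nerve was lowest for all 10 (Dicer iKO 2, 29.9% of genes, and Dgcr8 iKO 1, 28.1%). The median coefficient of variation of the 10 genes was 36.2% in Dicer controls, 28.5% in Dicer iKO, 31.6% in Dgcr8 controls and 41.4% in Dgcr8 iKO nerves.

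**Figure D5:**
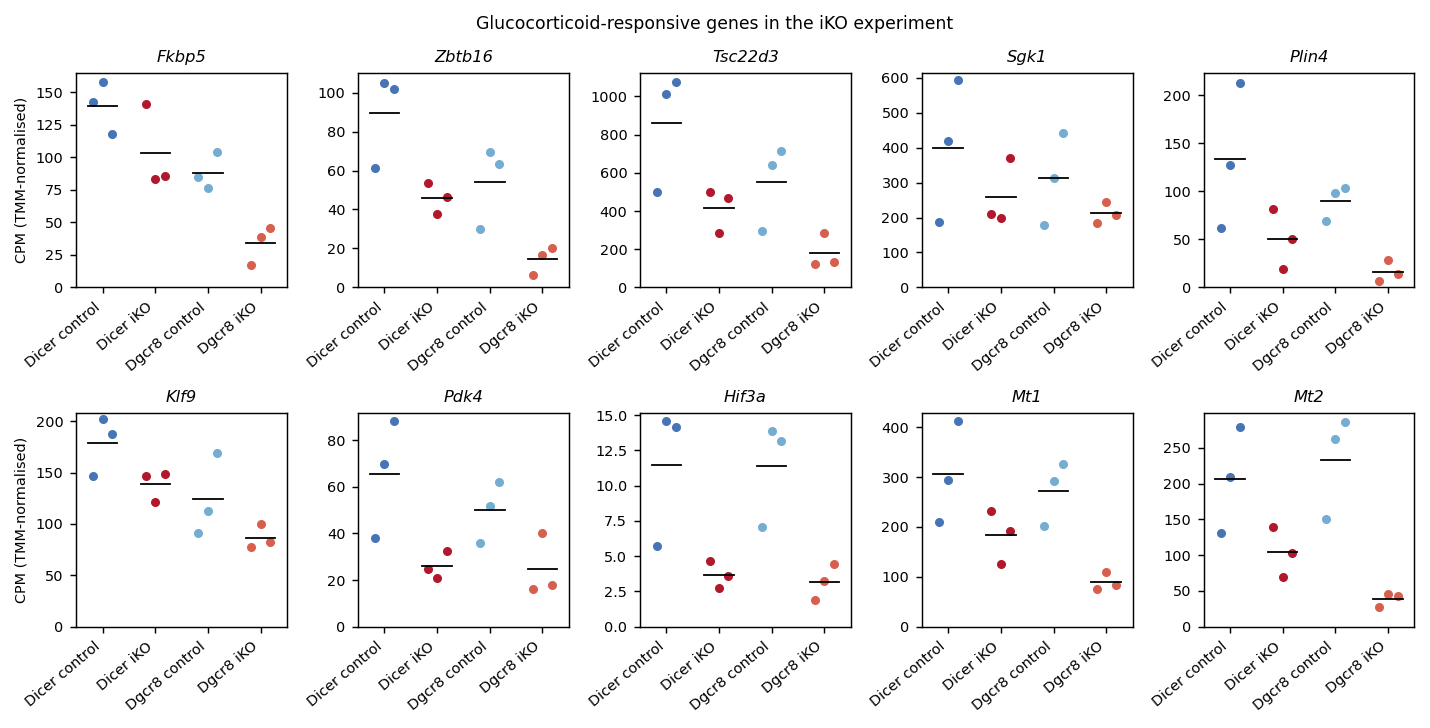
Level of the 10 genes in the iKO experiment (y axis, CPM normalised by TMM, linear from 0; x axis, group). Each point is 1 nerve and each line a group mean. Mean levels of all 10 genes are lower in each mutant than in its controls, for example Mt2 at 38.5 against 233 CPM in Dgcr8 and 104 against 207 CPM in Dicer.

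Whether the 2 mutants differed was tested as an interaction over the 12 libraries. It called 0 of the 10 genes at an adjusted p of at most 0.05 with edgeR's quasi-likelihood test, and 3 had an unadjusted p under 0.05, where 13.7% of 13552 genes did. Of all genes, edgeR called 1 higher and 1 lower (0.00738% each). DESeq2 called 1 of the 10, Mt2, as 1 of 65 genes lower beside 170 higher. Mt2 had the lowest interaction value, -1.61 on the log2 scale (Dgcr8 effect minus Dicer effect, SE 0.46, adjusted p = 0.184 by edgeR), followed by Plin4 (-1.05, SE 0.75). That 8 genes passed in Dgcr8 and 3 in Dicer is therefore not shown to be a difference between the mutants.

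Nr3c1, the glucocorticoid receptor, was at 107 ± 11.5 CPM in uncrushed (SD, n = 3), 124 ± 4.76 CPM in contralateral and 82.3 ± 6.02 CPM in crushed nerves (SD, n = 4 each). It fell in crushed against contralateral nerves (log2 fold change -0.58, adjusted p = 7.21e-06 by edgeR) and did not pass in Dicer iKO (-0.24, adjusted p = 0.0966) or Dgcr8 iKO (-0.05, adjusted p = 0.803). Nr3c2, the mineralocorticoid receptor, which binds the same hormones with higher affinity, fell in all 3 comparisons. It was at 16.4, 15.8, 13.1 and 15.7 CPM in contralateral and 2.09, 2.04, 2.11 and 2.73 CPM in crushed nerves (log2 fold change -2.75, SE 0.15). In Dicer iKO nerves it was at 24.6, 28.1 and 26.2 CPM against 56.5, 46.5 and 46.2 CPM (-0.92, SE 0.12), and in Dgcr8 iKO nerves at 17.6, 24.1 and 15.7 CPM against 40.7, 37.7 and 40.5 CPM (-1.05, SE 0.16). None of these groups overlapped. Uncrushed nerves were at 13.4, 14.0 and 14.0 CPM, inside the contralateral range.

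Of the chaperones that hold the receptor, Hsp90aa1 rose in crushed nerves, from 365 ± 12.7 to 1232 ± 81.5 CPM (SD, n = 4 each, log2 fold change 1.77), as did Hsp90ab1 (0.54), Ptges3, the p23 co-chaperone (0.60), and Stip1 (0.86). Fkbp4, the co-chaperone that Fkbp5 competes with, was at 0.02 (adjusted p = 0.814). Abcb1a, an efflux pump that exports steroids, fell in crushed (-1.04), Dicer iKO (-0.93) and Dgcr8 iKO (-0.67) nerves. Hsd11b1, which regenerates active hormone inside cells, rose in crushed against contralateral nerves (0.67, adjusted p = 0.0261 by edgeR), with H6pd, which supplies its cofactor (0.91). Hsd11b1 was also higher in uncrushed than in contralateral nerves (0.58, SE 0.22), and its value for crushed minus uncrushed nerves was 0.18 (SE 0.28). Hsd11b2, which inactivates the hormone, was at most 0.511 CPM in the crush libraries and at 0 in all 12 iKO libraries, which allows up to 0.296 to 0.536 CPM. In all, 7 of the 13 tested genes of the receptor and chaperones list rose and 4 fell in crushed against contralateral nerves, 0 rose and 2 fell in Dicer iKO, and 1 rose and 3 fell in Dgcr8 iKO. Of all genes tested, 33.5% rose and 32.9% fell in crushed, 12.3% and 8.88% in Dicer iKO, and 23.9% and 20.6% in Dgcr8 iKO nerves.

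Other genes known to be induced by glucocorticoids, a list of 24, moved in both directions. The counts here are to be read against the shares of all genes given above. In crushed against contralateral nerves 13 of 23 tested fell and 7 rose, with a median of -0.89. The lowest adjusted p values belonged to Sult1a1, a sulfotransferase (-5.09), Fam107a, an actin-associated stress gene (-5.69), Anxa1, the anti-inflammatory annexin (2.57), and Cdkn1a, the cell cycle inhibitor p21 (-3.27). In Dgcr8 iKO 10 of 22 fell and 6 rose, and in Dicer iKO 5 fell and 1 rose. Anxa1 rose in both mutants (1.204 and 1.16), and Lcn2 (-2.15 and -2.01) and Sesn1, a sestrin (-1.09 and -0.80), fell in both. In uncrushed minus contralateral nerves the median of this list was 0.08, with Arrdc2 highest at 0.67, against 0.76 for the 10 genes. Genes that glucocorticoids repress, cytokines and adhesion molecules, rose in 6 of 7 tested cases in crushed nerves, 6 of 8 in Dicer iKO and 5 of 6 in Dgcr8 iKO, led in crushed nerves by Ccl2, a monocyte chemokine (4.81). Mmp9 rose in crushed nerves (4.47) and fell in Dicer iKO (-2.71) and Dgcr8 iKO (-1.19).

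Of the lists of other inputs, those of metal response, fasting and hypoxia gave mixed counts, while more circadian clock genes fell than rose. These counts are to be read against the genes that rose among all tested, 33.5% in crushed, 12.3% in Dicer iKO and 23.9% in Dgcr8 iKO nerves, and the shares that fell given above. Of 10 metal response genes, 5 rose and 3 fell in crushed nerves, 1 rose and 2 fell in Dicer iKO, and 1 rose and 3 fell in Dgcr8 iKO. Mt3, the third metallothionein, fell with Mt1 and Mt2 in crushed (-3.79), Dicer iKO (-1.05) and Dgcr8 iKO (-2.11) nerves. Of 12 fasting and PPAR target genes tested, 6 rose and 5 fell in crushed nerves, and of 10 hypoxia genes 3 rose and 3 fell. In Dgcr8 iKO these counts were 6 and 4 of 13 for fasting genes and 3 and 3 of 10 for hypoxia genes, and in Dicer iKO 2 and 3 of 12 and 1 and 2 of 11. Of 16 circadian clock genes, 11 fell and 2 rose in crushed nerves and 10 fell and 1 rose in Dgcr8 iKO nerves, while 5 of 15 fell in Dicer iKO nerves. Hlf, a clock-controlled leucine zipper factor, fell in all 3 (-2.52, -1.71 and -1.02). Time of day of collection is not given in the sources used here. In uncrushed minus contralateral nerves 12 of 15 clock genes tested had a value below 0 (median -0.19), with Nr1d1, the clock repressor REV-ERB alpha, lowest (-0.79, SE 0.14), then Dbp, a clock output factor (-0.34, SE 0.09), Bhlhe40 (-0.33, SE 0.11) and Nr1d2 (-0.25, SE 0.07).

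Counts of cell type markers that rose or fell are to be read against all genes tested. Of those, 33.5% rose and 32.9% fell in crushed against contralateral nerves, 12.3% and 8.88% in Dicer iKO, and 23.9% and 20.6% in Dgcr8 iKO. Summed levels have no such share beside them. The 10 macrophage markers rose in 10 of 10 cases in crushed and Dgcr8 iKO nerves and 9 of 10 in Dicer iKO nerves, from a sum of 103-187 CPM in contralateral to 724-1740 CPM in crushed nerves, from 318-379 to 2891-6927 CPM in Dgcr8, and from 332-1133 to 4172-7676 CPM in Dicer. SC markers fell in 10 of 10 cases in crushed, 7 in Dgcr8 iKO and 2 in Dicer iKO nerves. In uncrushed and contralateral nerves the macrophage sums overlapped (132 to 174 and 103 to 187 CPM), as did those of SC markers. The fitted values of uncrushed minus contralateral nerves were nevertheless below 0 for 10 of 10 SC markers (median -0.20). Of all genes, 47.4% were below 0 and 52.6% above. The fitted values were above 0 for 8 of 10 macrophage markers (0.11), 8 of 9 fibroblast and perineurial markers (0.28) and 4 of 4 blood cell markers (0.43). Of 10 skeletal muscle markers listed, the 3 that could be tested were above 0 (0.51), at group means of only 0.864 to 1.39 CPM. The means of those too low to test went both ways, most of them lower in uncrushed nerves. Of endothelial markers 7 of 10 lay below 0 (-0.08), and of adipocyte markers 3 of 4 lay above 0 (0.19). Of the summed levels, those of skeletal muscle markers did not overlap (5.66 to 7.50 CPM in uncrushed and 4.48 to 5.64 CPM in contralateral nerves), while those of blood cell markers (14.8 to 38.4 and 12.5 to 34.4 CPM) and fibroblast and perineurial markers (4675 to 5500.4 and 4133 to 5335 CPM) did. Of 10 endothelial markers, 4 rose and 4 fell in crushed nerves, 6 fell in Dgcr8 iKO and 1 in Dicer iKO. Of 10 fibroblast and perineurial markers, 1 rose and 5 fell in crushed, 7 rose and 2 fell in Dgcr8 iKO, and 3 rose and 1 fell in Dicer iKO nerves. Blood cell markers fell in 4 of 4 tested cases in crushed and Dgcr8 iKO nerves and in 0 of 5 in Dicer iKO nerves (medians -1.63, -2.95 and -2.25), and of skeletal muscle markers 0 could be tested in crushed nerves, while 2 of 3 fell in Dicer iKO and 1 of 1 in Dgcr8 iKO. Of the adipocyte markers, 2 of 5 tested rose and 1 fell in crushed nerves, 2 of 3 rose in Dgcr8 iKO and 0 of 3 passed in Dicer iKO. The part of these cell types in the levels of the 10 genes was not tested.

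Fkbp5, the first-listed gene, was used to look for genes with the same pattern over the 11 crush libraries (Pearson's r of log2(CPM + 1), 16951 genes with a mean of at least 1 CPM). Among the 5 most alike outside the list were Gm26630 (r = 0.98), Gm8813 (0.97), Gm37903 (0.97) and Gm37485 (0.97). None of these named genes is annotated as protein-coding, which does not describe all 5. Gm26630 was at 8.54, 4.96 and 2.81 CPM on average in uncrushed, contralateral and crushed nerves. Within the list Klf9 was most like Fkbp5 (r = 0.96, with 23 genes more alike) and Sgk1 least (0.72, with 3306 more alike). These are descriptions over libraries that share group, depth and batch.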

How the data were processed

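Total RNA of 23 SNs was sequenced. The authors trimmed reads with Trimmomatic, aligned them with STAR to GRCm38 and estimated transcript abundance with RSEM. The Ensembl release is not given in the sources used here. The deposited expected counts, not normalized, were summed per gene and rounded, and every test used them. The deposited TPM values, scaled to transcript length and depth, served for levels between genes and as a check of scale. The deposited FPKM values were not used. The labels name a pico-input kit in the crush experiment but TruSeq plus Ribo-Zero in the iKO experiment, while the methods name TruSeq throughout. The third uncrushed library is numbered 3 in its title and 4 in its description, and the title was used.

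Genes passing edgeR's filterByExpr (minimum count 10), which included all 10 genes in each comparison, were scaled with TMM factors, and edgeR's quasi-likelihood F test was applied to the groups compared, with Benjamini-Hochberg adjustment over all genes tested (R 4.3.3, edgeR 4.0.16, limma 3.58.1, DESeq2 1.42.0). The thresholds were an adjusted p of at most 0.05 and, where given, a fold change of at least 2, which the methods also use. Standard errors derive from the quasi-likelihood F statistic. CPM used TMM factors estimated from every library of the experiment concerned. The test was tested on simulated data. The 10 genes, the gene lists and the comparisons were chosen with earlier results of these data known. Named are all 10 genes, receptor and chaperone genes, of each other list up to 4 genes with the lowest adjusted p (for uncrushed against contralateral nerves the largest changes), and the 5 genes most like Fkbp5, of which 1 is not reported here. Deviations of same-numbered libraries from their group means were correlated to check whether numbers pair samples. Over 27 pairs of replicate libraries the chi-square per degree of freedom was 3.86 to 40.3, so none was a copy. Alternatives were RLE normalization, no filter, at least 10 counts in every library, protein-coding genes only, all groups in 1 fit, the replicate number as a block, DESeq2's Wald test and each library left out.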

Additional observations from a re-analysis of the deposited data

Results flagged for a closer look

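Of 62 groups of 4 nerves examined for a sample far from the others, 5 had a nerve whose gap to its neighbour was large against the range of its group, and chance gives about 1 in 20. Crushed nerve 4 was the lowest for Sgk1 (123 CPM, the others from 146 to 149 CPM) and for Stip1 (64.8 CPM), and the highest for Nr3c2 (2.73 CPM). Contralateral nerve 1, which was also the lowest for 9 of the 10 glucocorticoid-responsive genes, was the lowest for Abcb1a (56.0 CPM). Crushed nerve 1 had the highest summed adipocyte markers (84.3 CPM) and the highest Plin4 of its group (3.93 CPM). Among the clock genes, Per3 passed the interaction test between the mutants only just (adjusted p = 0.0495, edgeR's interaction test). Its Dgcr8 effect minus Dicer effect was -1.27 on the log2 scale. It went from 96.4 ± 15.4 to 31.4 ± 2.80 CPM in Dgcr8 and from 128 ± 12.3 to 101 ± 4.11 CPM in Dicer (SD, n = 3 each). Per3 was the 1 gene called lower over all genes. With RLE normalization, at least 10 counts in every library or the replicate block, 0 genes were called lower. The same held in most runs with 1 library left out, while DESeq2 called 65 lower.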

How the results depend on the processing

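The 10 fold changes of uncrushed against contralateral nerves and of crushed against contralateral nerves, and those of each mutant against its controls, kept their sign under every alternative run. The count of genes lower in crushed against contralateral nerves was 8 to 10, and in Dgcr8 iKO 7 to 10. In Dicer iKO it was 3 as reported, 6 with DESeq2, 1 with the replicate number as a block, and 0 to 9 when 1 library was left out. For the difference between the mutants it was 0 as reported, 1 with DESeq2, and 0 to 1 when 1 library was left out (1, Mt2, without Dicer control 3, where 320 of all genes were higher and 81 lower). Over all genes that difference gave 1 higher and 1 lower as reported, 170 and 65 with DESeq2, 17 and 3 with no filter, and 0 and 0 with the block. With 1 library left out that difference changed sign for Sgk1 (-0.33 to 0.42), Klf9 (-0.33 to 0.13), Pdk4 (-0.22 to 0.59) and Hif3a (-0.49 to 0.12). The median of crushed against uncrushed nerves was -2.65 with no filter (reported -2.88). The cause of these changes was not tested. Crushed and contralateral nerves came from the same mice, but equal numbers are not stated to mark 1 mouse. The correlated deviations cannot decide whether numbers pair samples, because the pairs are few and their correlations weak. For crushed with contralateral libraries, r averaged 0.05 over 4 equal-numbered pairs and -0.02 over 12 others (-0.25 to 0.13). Pairs 4 (0.18) and 2 (0.14) were the highest of all, while pairs 1 (-0.09) and 3 (-0.01) were below 0. Equal-numbered pairs averaged -0.06 in Dicer (others 0.03) and -0.04 in Dgcr8 (others 0.02). The block changed the Sgk1 call in crushed nerves (adjusted p = 0.0719 by edgeR). Over all genes, uncrushed against contralateral nerves gave 0 calls as reported, 14 higher and 1 lower with the block, and 599 higher and 57 lower with no filter, 177 and 2 without uncrushed nerve 2, 62 and 4 without uncrushed nerve 1, and 5 and 1 without contralateral nerve 4. Dicer iKO gave 1605 higher and 1159 lower as reported, 687 and 242 with the block, 718 and 259 without Dicer control 2, 702 and 177 without Dicer iKO 2, and 668 and 173 without Dicer iKO 3. Plin4 in crushed nerves lies near the depth limit, and the filter of 10 counts in every library removes it.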
